A study of Mus musculus with 3 samples.

Results

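The V and J segments of the mouse T cell receptor alpha locus were taken as all genes of the GENCODE M21 annotation whose symbol starts with Trav or Traj. That rule gave 188 of the 55536 annotated genes, of which 128 were V segments (Trav) and 60 were J segments (Traj). Of the V segments, 108 were annotated as functional V genes and 20 as pseudogenes, and of the J segments 51 and 9. All lie on chromosome 14 of build mm10, upstream of Trac, the alpha constant gene (54220521 to 54224206). RNA selected for polyA tails was sequenced from effector memory CD4 T cells of 1 male mouse aged 5 months, strain B6.SJL-Ptprca Pepcb/BoyJ, a congenic line that carries the a allele of Ptprc, the gene of CD45. The 3 libraries carry the labels of technical replicates 1, 2 and 3 of 1 biosample and formed 1 group, so no conditions were compared. Every SD and every p-value therefore measures only the spread between these libraries, which may be technical. Other mice and the gate used to sort the cells were not analysed here.

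A T cell receptor alpha chain is built in the thymus, where the Rag recombinase joins 1 V segment to 1 J segment and the joined exon is later spliced to Trac. The V segment carries the first and second loops that touch the peptide-presenting molecule, and the V to J join forms the third loop. A T cell clone therefore expresses 1 or a few V segments, and a mixed population expresses many. In C57BL/6 mice a stretch of the V array is present in several copies, whose genes bear a d or an n in the symbol. A "subgroup" is here all genes with the same number after Trav, and a "copy set" is the genes that differ only by d or n. The rule gave 23 subgroups and 57 copy sets.

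The CD4 T cell markers followed the label, and library 1 stood apart from libraries 2 and 3. Expected counts on annotated genes, in which a read that matches several transcripts is divided between them, summed to 17475086, 15303744 and 16882441 in libraries 1, 2 and 3. All 9 CD4 alpha-beta T cell markers were at a TPM (transcript abundance per length, scaled within the library) of 1 or more in each library. Cd8a had 0 to 2 counts, while Cd8b1 had 87 to 160. The 5 gamma-delta markers summed to 0.49 to 2.09 TPM, the 5 thymocyte markers to 0.08 to 0.19 TPM and the 5 B cell markers to 1.56 to 3.24 TPM. Higher were the 4 natural killer T cell markers, at 15.4 to 18.7 TPM, and the 3 markers of natural killer and mucosal-associated invariant T cells, at 3.51 to 6.09 TPM. Klrb1c and Cd160 made up nearly all of the former and Eomes of the latter, while Ncr1 had 0 to 1 counts and Klra8 had 0. Their part in the V and J values was not tested. Pearson's chi-square test of homogeneity, with Benjamini-Hochberg adjustment and an adjusted p under 0.05 as the threshold, called 9983 of 13177 genes with at least 30 counts different between the libraries. With library 1 left out it called 2079 of 12468. That test sets libraries against counting error alone, not conditions.

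The V genes as a group were abundant, and in the M21 table they followed Trac from library to library. Trav genes had 16810, 7208 and 8022 counts in libraries 1, 2 and 3, which is 961.9, 471.01 and 475 CPM (counts scaled to a library total of 1000000). Trac stood at 3312, 1636 and 1662 CPM. Library 1 was thus 2.03 times the mean of the other libraries for Trav and 2.01 times for Trac. In the M4 table these ratios were 1.46 for Trav and 1.21 for Trac. There Trac lay 41.0, 21.3 and 23.6 times below its M21 value in libraries 1, 2 and 3. The M4 ratios therefore do not show how closely Trav followed Trac. On the TPM scale, which divides by length, summed Trav came to 69.3%, 69.2% and 68.4% of Trac (mean 69.0% ± 0.503, SD, n = 3). By the M21 values the share of Trac was therefore nearly the same in a library with high and in those with low receptor counts. In bulk RNA, fewer cells of a type and less RNA per cell cannot be told apart. These libraries are labelled technical replicates of 1 biosample, and the part of library preparation in their difference was not tested.

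The J genes gave few counts, 762, 381 and 419. A 50-base read must lie whole within a J segment of 29 to 72 bases to be counted there, and reads across a V to J join lie in neither segment. Effective lengths, the number of start positions such a read can take, ran from 0 to 23 bases, and 4 pseudogenes (Traj51, Traj14, Traj8 and Traj1) had 0 and could not receive a count. Summed Traj TPM was 89.0%, 103.3% and 100.2% of Trac TPM.

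The 3 copies of 1 V segment carried most V counts, so the end of their coding sequence is shown first. These are the last 180 bases of Trav14d-3-dv8 (chr14:53078452-53079045), Trav14n-3 (chr14:53370077-53370575) and Trav14-3 (chr14:53763173-53763694), from the GENCODE M21 transcripts, 5′ to 3′. Capitals mark the 9 positions at which the copies differ.
Trav14d-3-dv8: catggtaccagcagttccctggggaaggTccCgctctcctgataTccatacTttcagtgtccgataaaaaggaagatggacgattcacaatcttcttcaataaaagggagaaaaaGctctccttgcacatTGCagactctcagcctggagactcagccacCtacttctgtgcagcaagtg
Trav14n-3: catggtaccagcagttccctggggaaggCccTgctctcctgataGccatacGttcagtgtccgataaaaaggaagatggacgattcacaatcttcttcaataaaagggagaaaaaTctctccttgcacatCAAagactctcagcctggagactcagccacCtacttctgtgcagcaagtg
Trav14-3: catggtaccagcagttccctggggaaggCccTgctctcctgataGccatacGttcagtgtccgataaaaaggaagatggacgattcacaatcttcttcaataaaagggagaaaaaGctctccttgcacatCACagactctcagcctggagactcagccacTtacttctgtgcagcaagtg
Trav14n-3 and Trav14-3 matched at 98.3% of these bases. Trav14d-3-dv8 matched Trav14n-3 at 95.6% and Trav14-3 at 96.1%. In the whole transcripts, 61.2%, 53.8% and 43.3% of the 50-base windows of Trav14d-3-dv8, Trav14n-3 and Trav14-3 occurred in no other annotated gene, so reads could be assigned among them in part.

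Trav14 was the highest subgroup in each library. Its share of Trav counts was 76.4% in library 1 (95% Wilson interval 75.7 to 77.0%), 67.6% in library 2 (interval 66.5 to 68.6%) and 65.7% in library 3 (interval 64.6 to 66.7%), with a mean of 69.9% ± 5.70 (SD, n = 3). Intervals cover counting error only, since the tables carry no molecular identifiers. Library 1 was above both others by more than its interval, and the interval of library 2 overlapped that of library 3. In the whole-number counts that the authors deposited on GENCODE M4 annotation, Trav14 was also highest but held 54.9%, 58.1% and 58.7%, lowest in library 1. The order of the libraries for Trav14 therefore depended on which deposited table was read.

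The other subgroups were far lower. Trav7 held 7.36%, 8.62% and 8.05% (mean 8.01% ± 0.631, SD, n = 3), with overlapping intervals in libraries 2 and 3. In the M4 table Trav7 held 3.17% on average, rank 7, below Trav6, Trav1, Trav4, Trav13 and Trav3. That table lists 99 of the 128 Trav genes and leaves out Trav7d-2, Trav7d-5 and Trav7-1. Its Trav7 share therefore covers fewer genes and is not a like measure. Trav6 held 2.34%, 5.19% and 5.96%, so that its share in library 1 lay below the intervals of both others. Trav15 held 2.54%, 2.59% and 3.00%. The shares of Trav10, Trav12, Trav3 and Trav9 had means of 2.02% ± 0.548, 1.91% ± 0.279, 1.87% ± 0.195 and 1.77% ± 0.689 (SD, n = 3 each), and these 4 neighbours in the order did not differ beyond their spread. In the M4 table their means were 3.08%, 1.52%, 3.36% and 2.15%. Trav18 and Trav22 had 0 counts in every library and Trav23 had 1 count in library 1. In any 1 library, 0 counts allow up to 3 counts. Leaving Trav14 out, the remaining 22 subgroups were spread more evenly: Trav7 held 31.1%, 26.6% and 23.4% of those counts.

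**Figure D1:**
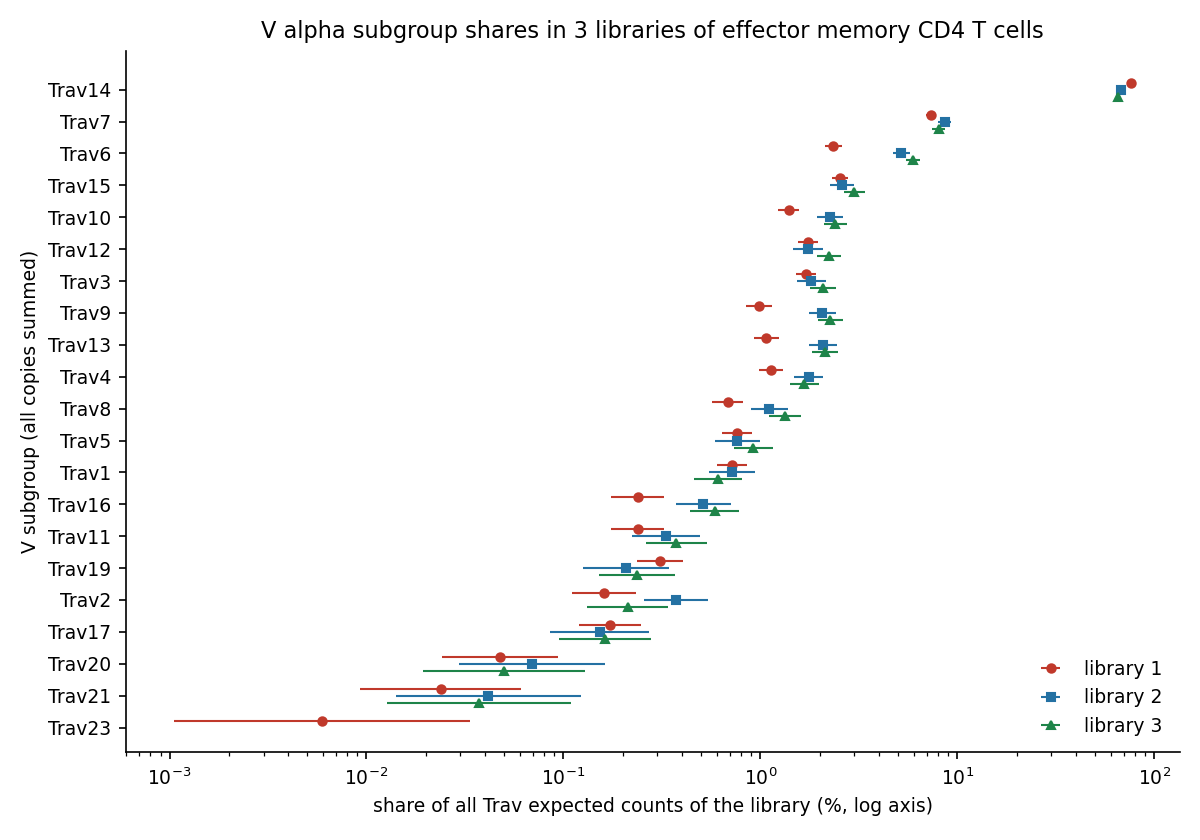
Share of each V subgroup in all Trav expected counts of a library, on a log axis, for the 21 subgroups with a count. Points are libraries and bars are 95% Wilson intervals; Trav14 stands at 65.7% to 76.4%, and Trav6 in library 1 (2.34%) lies below its values in libraries 2 and 3. Libraries with 0 counts are not drawn.

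The inverse Simpson number, the count of equally used segments that would give the same concentration, put this in 1 value. It was 1.69, 2.13 and 2.25 for the 23 V subgroups and rose to 7.05, 7.84 and 8.39 without Trav14. For the 60 J genes it was 20.1, 24.5 and 22.9. V counts were thus concentrated on 1 subgroup, whereas J counts were spread over many segments. The counts of V and J segments come from different reads and carry no link between a V and a J of the same chain.

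Within Trav14, the Trav14-3 copy set took most counts. Trav14-3 and its d and n copies summed to 11682, 4415 and 4748 counts, or 69.5%, 61.3% and 59.2% of Trav counts (mean 63.3% ± 5.45, SD, n = 3). Of the Trav14 counts they made up 91.0%, 90.6% and 90.1%, and Trav14-2 with its copies 7.81%, 8.01% and 8.46%. The split within the subgroup was therefore close in the 3 libraries although the subgroup's own share was not. The next copy sets were Trav7-2 at 5.79% ± 0.378, Trav14-2 at 5.64% ± 0.289, Trav6-7 at 2.30% ± 0.962, Trav15-2 at 2.18% ± 0.202 and Trav10 at 2.02% ± 0.548 of Trav counts. Trav3-3 at 1.33% ± 0.310 and Trav9-4 at 1.31% ± 0.619 followed (SD, n = 3 for each). That order held for the M21 counts only: in the M4 table the mean was 1.51% for Trav7-2, 6.71% for Trav14-2, 4.34% for Trav6-7 and 0.896% for Trav15-2. The M4 table does not list Trav7d-2, the other copy in the Trav7-2 set.

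The 3 copies kept the same order by count in each library. Trav14d-3-dv8 had 5711, 2132 and 2221 expected counts, with a posterior SD (the uncertainty of the estimate within 1 library, as deposited) of 37.8, 22.3 and 23.2. Trav14n-3 had 4326, 1623 and 1767 counts and Trav14-3 had 1645, 660 and 760. Within the set, Trav14d-3-dv8 made up 48.0% ± 1.09, Trav14n-3 37.0% ± 0.236 and Trav14-3 15.01% ± 0.962 (SD, n = 3). Per length the first and second changed places: mean TPM was 808 ± 432 for Trav14d-3-dv8, 926 ± 476 for Trav14n-3 and 299 ± 136 for Trav14-3 (SD, n = 3). Their effective lengths are 407, 273 and 335 bases, and Trav14n-3 was above Trav14d-3-dv8 in each library, at 1474 against 1306, 684 against 590 and 620 against 527 TPM. As shares of the set's TPM they held 45.5% ± 0.169 and 39.5% ± 0.878 (SD, n = 3). In the M4 table the copies had 349, 305 and 327 counts (Trav14d-3-dv8), 245, 209 and 211 (Trav14n-3) and 321, 197 and 211 (Trav14-3). There Trav14-3 was about level with Trav14n-3 in libraries 2 and 3 and above it in library 1.

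Trav14d-3-dv8 is 1 of 10 V genes whose symbol holds dv, which marks segments that can also join to delta chains. These 10 genes held 36.4%, 33.4% and 31.9% of Trav counts. Trav14d-3-dv8 supplied most of that. The 11 genes on the list of delta segments summed to 28.5, 17.6 and 23.1 TPM. Of these genes, 7 had 0 counts, among them both D segments (Trdd1, Trdd2) and both J segments (Trdj1, Trdj2) annotated there. As for the Traj genes, a read must lie whole within a segment to be counted there. Whether these D and J segments are long enough to receive a count was not tested. Their 0 counts therefore do not show that they are absent from the RNA. Trdc, the delta constant gene, had 25, 10 and 11 counts, and Trdv1 had 51, 29 and 47. Trdv2-2 had 24.8, 18.0 and 7.56 counts and Trdv2-1 15.2, 0.01 and 15.4.

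Copies whose sequences coincide were not told apart by the deposited estimates. The clearest case was Trav7-2 (chr14:53390635-53391142) and Trav7d-2 (chr14:52683964-52684472), which match over all 336 bases of the shorter transcript. The ends of the 2 transcripts are shown, with capitals for the base that the other copy lacks.
Trav7-2: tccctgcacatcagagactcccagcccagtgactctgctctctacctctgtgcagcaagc
Trav7d-2: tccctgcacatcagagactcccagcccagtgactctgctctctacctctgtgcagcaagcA
Trav7d-2 had 910, 0.01 and 345 counts, and Trav7-2 had 0, 445 and 118. The posterior SD of Trav7-2 was 185, 125 and 99.5 counts, and that of Trav7d-2 was 185, 126 and 99.5. Each copy was thus near 0 in a library in which the other held nearly all counts, and the SD of the estimate was many times the count of the copy near 0. Their sum was far steadier, at 5.42%, 6.17% and 5.77% of Trav counts.

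**Figure D2:**
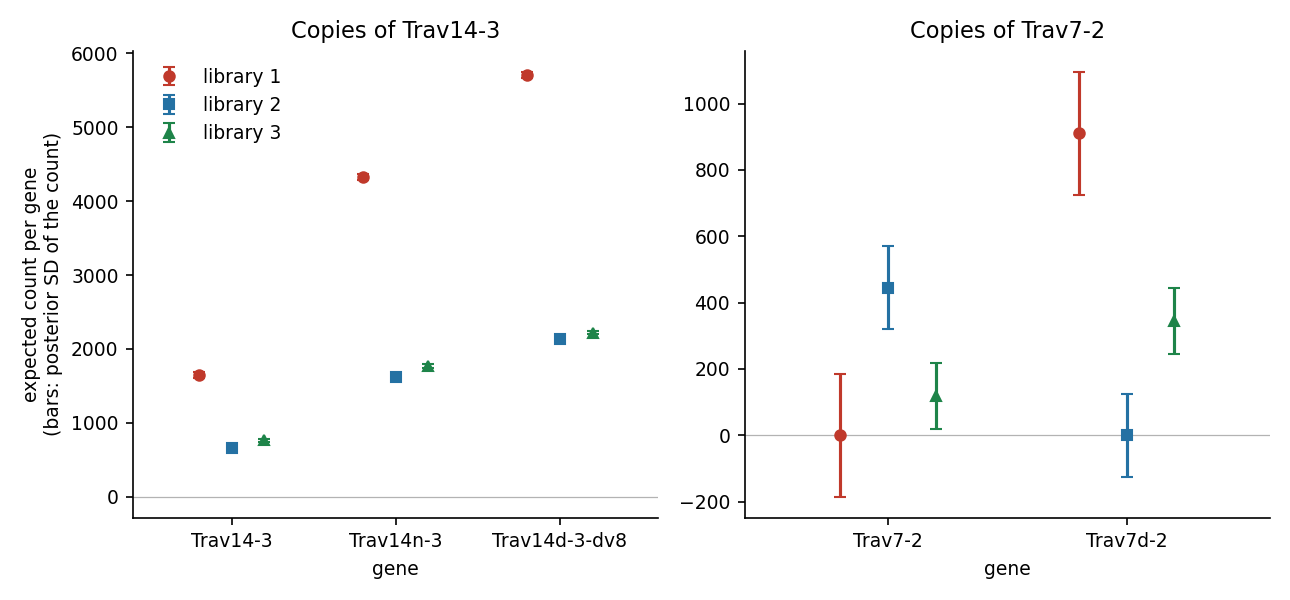
Expected counts of the copies of Trav14-3 (left) and of Trav7-2 (right) in each library, with bars of 1 posterior SD. The Trav14-3 copies keep 1 order in the 3 libraries, while Trav7-2 and Trav7d-2 trade places between library 1 (0 against 910) and library 2 (445 against 0.01).

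The share of windows that a gene shares with no other gene described where this happened. Of the 128 Trav genes, 42 had no unique 50-base window and 10 had all windows unique. When copies were summed, 52 genes had every window within their own copy set, and 116 had every window within their own subgroup. Reads could therefore be placed in a subgroup more often than in a single gene. Among Trav genes with at least 30 counts, the posterior SD had a median of 58.0% of the count for the 24 genes with no unique window. The median was 19.8% for the 22 genes with under 50% unique and 5.80% for the 27 genes with 50% or more. All 56 Traj genes long enough to hold a window had only unique windows.

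**Figure D3:**
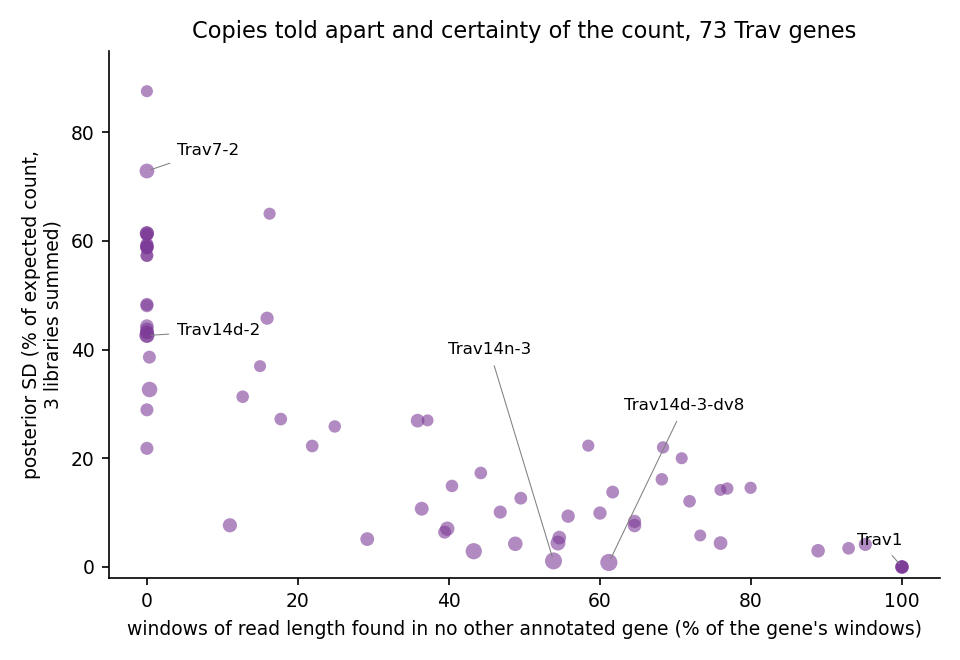
Posterior SD as a percent of the expected count, libraries summed, against the percent of 50-base windows found in no other annotated gene, for the 73 Trav genes with at least 30 counts. Larger points have more counts. Genes with no unique window reach 87.6%, while Trav14d-3-dv8 (61.2% unique) is at 0.827%.

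Of 33 pairs of a d and an n copy, 17 had equal counts in every library, and 14 of those were above 0. Trav14d-2 and Trav14n-2, for example, were each given 327, 133 and 133 counts, beside 348, 123 and 179 for Trav14-2. Neither Trav14d-2 nor Trav14n-2 has a unique window, and in the M4 table both were listed at 0 counts while Trav14-2 had 173, 73 and 97. Single counts of such copies are uncertain.

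The ratio between the highest and lowest library has no upper limit where a library rounds to 0 counts. The 5 Trav genes ranked first by it, among those with at least 30 counts, were therefore those with about 0 counts in 1 library. Each had a close copy with counts there. Besides Trav7d-2 and Trav7-2 the genes were Trav12d-3 (0, 17.6 and 18.1 counts), Trav12n-3 (65.4, 0 and 15.8) and Trav6n-5 (60.8, 42.5 and 0). Summed with their copies they moved less. The Trav12-3 set held 0.531%, 0.482% and 0.566% of Trav counts, and the Trav6-5 set 0.485%, 1.35% and 1.37%.

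Other V genes among the 10 highest by share were Trav6-7-dv9 and Trav10. Trav6-7-dv9 had 124, 134 and 166 counts with posterior SDs of 5.98 to 6.08. Trav10 had 142, 81.4 and 122 counts, and held 58.1% ± 7.16 (SD, n = 3) of its own set. Both genes had counts in every library, unlike Trav7-2.

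Along the locus, the V genes start from 1793 kb to 243 kb before Trac. Split by position, the 43 genes farthest from J held 13.03%, 9.25% and 14.2% of Trav counts, the next 43 held 68.0%, 68.9% and 62.3%, and the 42 nearest J held 18.9%, 21.9% and 23.4%. The middle stretch contains Trav14d-3-dv8 and Trav14n-3. Genes named with d held 45.6%, 37.3% and 40.7%, those with n 33.3%, 32.2% and 32.1%, and those with neither 21.1%, 30.6% and 27.2%. The low value for d genes in library 2 coincided with the 0.01 counts of Trav7d-2 there. These values carry the uncertainty of single copies, and the M4 counts gave a mean of 41.6% for d and n genes together against 73.7%. The M4 table lists 99 of the 128 Trav genes, and Trav7d-2 is among those it leaves out.

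Annotated pseudogenes took few counts. They held 0.375%, 0.720% and 0.742% of Trav counts, although they are 20 of the 128 genes, and 13 of them had 0 counts in every library. Trav8-2 was the highest of them, with 37.8, 30.2 and 34.1 counts. Of the functional V genes 4 had 0 counts in every library, namely Trav7d-3, Trav7n-6, Trav11 and Trav18. Trav7n-6 and Trav11 have no unique window. The 0 counts of Trav11 therefore do not separate it from its copies. For Trav7n-6, only 0.301% of windows were confined to its subgroup, and the others also occurred in C920008G01Rik, a V gene outside the symbol rule. The 0 counts of Trav7n-6 therefore do not separate it from that gene. Among J genes the pseudogenes held 0.131%, 0.525% and 0.477% of counts, and the functional Traj59 and Traj41 had 0.

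The J segments with the most counts lay in the middle of the J array and towards Trac. The 6 highest by mean share and Traj33 are shown whole, with capitals for the motif that J segments contribute to the chain: phenylalanine, glycine, any residue and glycine. It was searched as a TTT or TTC codon followed by GGN, any codon, GGN and AC, on both strands. Traj26 is at chr14:54194490-54194549, Traj32 at chr14:54186101-54186166, Traj17 at chr14:54201775-54201837 and Traj21 at chr14:54198790-54198846. Traj6 is at chr14:54212688-54212749, Traj18 at chr14:54200777-54200842 and Traj33 at chr14:54185358-54185414.
Traj26: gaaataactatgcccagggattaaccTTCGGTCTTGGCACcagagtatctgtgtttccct
Traj32: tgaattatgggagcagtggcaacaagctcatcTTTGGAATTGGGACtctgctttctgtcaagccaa
Traj17: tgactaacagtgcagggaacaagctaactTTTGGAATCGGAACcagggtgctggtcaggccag
Traj21: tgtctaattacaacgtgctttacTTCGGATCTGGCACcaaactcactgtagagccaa
Traj6: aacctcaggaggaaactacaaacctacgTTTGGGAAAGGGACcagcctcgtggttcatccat
Traj18: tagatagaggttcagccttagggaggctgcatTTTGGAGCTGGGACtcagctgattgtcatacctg
Traj33: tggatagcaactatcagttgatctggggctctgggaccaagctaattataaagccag
Of the 60 Traj genes, 32 (53.3%) held the form with TTT and 7 (11.7%) the form with TTC, and no gene held either on the reverse strand. The 2 forms differ in 1 base, so 1 site cannot hold both. Either form was found in 38 of 51 functional genes and in 1 of 9 pseudogenes. Those 39 segments held 92.1%, 90.03% and 89.3% of Traj counts. Traj33 held neither form.

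Traj26 had the highest mean share, with 87, 30 and 50 counts, or 11.4% (95% Wilson interval 9.35 to 13.9%), 7.87% (5.57 to 11.0%) and 11.9% (9.17 to 15.4%). The intervals of the libraries overlapped. Traj32 had 86, 27 and 27 counts (mean 8.27% ± 2.63), Traj17 had 55, 33 and 29 (7.60% ± 0.931) and Traj21 had 49, 30 and 28 (7.00% ± 0.771, SD, n = 3 each). Each of these 4 segments lay within the SD of its neighbour in this order. The SDs of Traj26 and Traj21 did not meet, although both had 30 counts in library 2. All 3 shares of Traj21 lay above those of Traj6, the next in order. Together the 4 held 36.4%, 31.5% and 32.0% of Traj counts. Per length the order changed: Traj21 followed Traj26, at a mean TPM of 443 ± 117 against 494 ± 220, and Traj17 and Traj32 stood at 277 ± 83.3 and 268 ± 176 (SD, n = 3).

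The next 8 segments held 2.55% to 4.41% each on average. They were Traj6 (30, 19 and 18 counts), Traj18 (24, 12 and 19), Traj45 (26, 13 and 14), Traj9 (31, 4 and 16), Traj39 (20, 11 and 13), Traj27 (26, 11 and 8), Traj37 (18, 9 and 13) and Traj12 (12, 15 and 9). Traj9 varied most among these, from 4.07% in library 1 to 1.05% in library 2. At these counts the shares of single J segments are loose, and 41 of 60 Traj genes had at least 1 count in every library.

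By position the J counts were highest in the third of 4 groups of 15 segments. In order from the V side, group 1 (Traj61 to Traj47) held 7.48%, 8.66% and 7.88% of Traj counts. Group 2 (Traj46 to Traj32) held 30.6%, 26.0% and 24.6%, and group 3 (Traj31 to Traj17) 41.6%, 43.6% and 43.4%. Group 4 (Traj16 to Traj1) held 20.3%, 21.8% and 24.1%. By counts the order of the 4 groups was the same in each library. Groups 2 and 4 had overlapping 95% Wilson intervals in library 2 (21.8 to 30.6% and 17.9 to 26.2%) and in library 3 (20.7 to 28.9% and 20.3 to 28.4%). Group 1 was below and group 3 above both groups 2 and 4 in each library. Counts of a J segment also varied with its effective length. The 10 segments with effective lengths of 1 to 8 bases averaged 9.90, 5.30 and 5.00 counts a gene, the 23 with 9 to 13 bases 16.4, 8.35 and 9.22, and the 23 with 14 to 23 bases 12.39, 5.91 and 6.83. On the TPM scale, which divides by that length, the 4 groups held on average 7.30%, 24.2%, 45.2% and 23.3% of summed Traj TPM. On that scale group 4 was above group 2 in library 3 (25.5% against 22.1%), unlike in library 1 (21.8% against 27.3%).

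**Figure D4:**
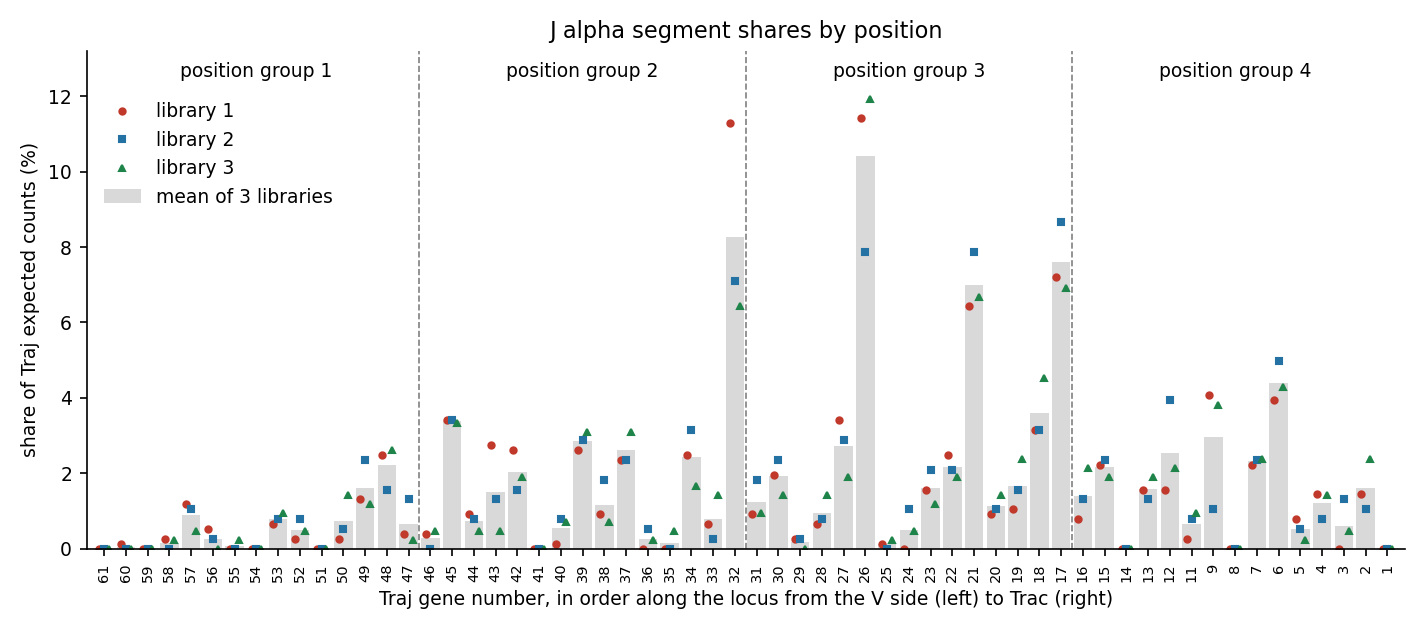
Share of each Traj gene in all Traj expected counts, in order along the locus from the V side to Trac, with points for libraries, bars for their mean and dashed lines between position groups of 15 genes. Group 3 holds 41.6% to 43.6% of the counts and contains Traj26, Traj21 and Traj17.

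The segments of 2 invariant receptors were also read. Invariant natural killer T cells join Trav11 to Traj18, and mucosal-associated invariant T cells join Trav1 to Traj33. Trav11 (chr14:53519303-53519859) had 0 counts in every library and Trav11d (chr14:52824357-52824912) had 35.3, 22.4 and 28.9, with posterior SDs of 10.05, 6.65 and 8.34. Their transcripts match over all 342 bases of the shorter one, and neither has a unique window, so that these counts could belong to either. The ends of both are shown, with capitals for the base the other lacks.
Trav11: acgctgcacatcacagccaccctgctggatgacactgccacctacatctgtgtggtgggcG
Trav11d: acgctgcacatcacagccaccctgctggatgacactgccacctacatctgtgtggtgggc
The whole Trav11 subgroup held 0.238%, 0.333% and 0.374% of Trav counts. Traj18 had 24, 12 and 19 counts, rank 6 among the J segments by counts at 3.61% ± 0.80 (SD, n = 3). Per length it was lower, at 2.44% ± 0.556 of summed Traj TPM (SD, n = 3). Zbtb16, the transcription factor that defines natural killer T cells, had 0, 9 and 0 counts. The 4-gene list of natural killer T cell markers to which it belongs summed to 15.4, 18.7 and 17.3 TPM, of which Klrb1c, a receptor that natural killer cells also carry, had 9.27, 9.03 and 7.74. Trav1 had 121, 52 and 49 counts, all of its windows are unique, and its share was 0.720%, 0.721% and 0.611%, against a mean of 4.19% in the M4 table. Traj33 had 5, 1 and 6 counts, or 0.784% ± 0.595 of Traj counts (SD, n = 3). Whether a Trav1 or Trav11 count and a J count came from 1 chain cannot be read from these tables.

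Where V and J genes were called different between the libraries, library 1 was in most cases highest. The chi-square test called 41 of 92 members with at least 30 counts, beside 75.8% of all genes tested. Of the 92, 36 (39.1%) were called with library 1 highest, beside 32.9% of all genes tested, and 4 (4.35%) with library 1 lowest, beside 40.1% of all genes tested. These 4 were Trav7-2, Trav12d-3, Trav6-5 and Trav6-7-dv9. Summed with their copies, the Trav7-2 and Trav12-3 sets were highest in library 1. The Trav6-5 and Trav6-7 sets were not called (adjusted p = 0.0617 and 0.0713, Pearson's chi-square with Benjamini-Hochberg adjustment). With copy sets summed, 1 of 59 members tested was called with library 1 lowest, beside 40.2% of all features. It was the Trav9-4 set, at 5.78, 7.58 and 8.17 CPM (adjusted p = 0.0326, same test). The 41 members called were 35 of 73 Trav genes and 6 of 19 Traj genes (Traj9, Traj27, Traj32, Traj42, Traj26 and Traj17). The log2 ratio of library 1 to the mean of the others had a median of 0.62 over the 73 Trav genes and -0.11 over all 13177 genes. Scaling by TMM factors in place of total counts moved these medians to 0.75 and 0.02. A gene with few counts can pass this test only for a large difference.

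Summed to 18 subgroups with at least 30 counts, 11 were called, beside 75.9% of all features, and 10 were called with library 1 highest, beside 32.9% of all features. Trav14 stood at 735, 318 and 312 CPM, a ratio of 2.36 between the highest and lowest library. Trav7 stood at 70.7, 40.7 and 38.1 CPM (adjusted p = 3.09e-48, Pearson's chi-square with Benjamini-Hochberg adjustment). Trav6 was the exception with library 1 lowest, at 22.6, 24.4 and 28.4 CPM (adjusted p = 0.00419, same test), but with TMM factors or median-of-ratios size factors library 2 was lowest. The subgroups Trav9, Trav13, Trav10 and Trav8 were not called (adjusted p = 0.607, 0.917, 0.0750 and 0.312, same test), at 9.56, 9.67 and 10.6 CPM for Trav9 and 10.4, 9.87 and 10.1 for Trav13. Trac, whose exons every functional alpha transcript shares, was called with 3312, 1636 and 1662 CPM. Trav14, Trav7 and Trac kept library 1 highest with either of those scalings.

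With library 1 left out, no subgroup and no copy set was called by the same test, beside 16.7% of all features. Of single genes 5 of 61 were called, Trav7d-2, Trav7-2, Trav6n-5, Trav6-5 and Trav13d-1, each a gene with other copies in its set. Divided by the median overdispersion over all genes tested, 19.9, the chi-square over the 3 libraries called 5 of 92 members, beside 21.6% of all genes. These 5 were Trav14d-3-dv8, Trav14n-3, Trav14-3, Trav7d-2 and Trav7-2. With TMM factors as library sizes the test called 45 of 92, beside 75.7% of all genes, and with median-of-ratios factors 47 of 92, beside 75.8%. With library 2 left out it called 40 of 74 members, beside 74.6% of all genes, and with library 3 left out 34 of 75, beside 73.5%.

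Distances between libraries followed the same order. The total variation distance is the share of counts that would have to move for the shares of a pair of libraries to coincide. For V subgroups it was 8.92% for libraries 1 and 2, 10.9% for libraries 1 and 3 and 2.87% for libraries 2 and 3. Without Trav14 it was 13.5%, 14.6% and 4.98%, so library 1 also stood apart in the rest of the V genes. For single V genes it was 15.7%, 13.4% and 10.5%, the last value being raised by copies that trade counts. For Traj genes it was 18.5%, 15.7% and 19.9%, where libraries 2 and 3 were no closer than the other pairs. For the 4 position groups of Traj it was 4.59%, 5.995% and 2.32%. Traj shares rest on 762, 381 and 419 counts, and counting error raises this distance most where counts are fewest. The Traj gene distances therefore cannot be compared with those of the V genes.

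The genes that assemble and carry the receptor did not share one direction. Of the 18 genes on that list 14 were tested and 12 called, beside 75.8% of all genes. Of the 14, 6 were called with library 1 highest and 5 with library 1 lowest, beside 32.9% and 40.1% of all genes, so these counts do not set the list apart. Cd3d and Cd3g, subunits of the CD3 signalling complex, stood at 482, 345 and 378 TPM and at 881, 585 and 611 TPM, both highest in library 1. Cd3e, another CD3 subunit, stood at 374, 762 and 742 TPM, lowest in library 1, as was Cd4 at 269, 541 and 523 TPM. Cd247, the zeta chain, was nearly level at 253, 253 and 254 TPM. The beta constant genes Trbc1 and Trbc2 stood at 1174, 1084 and 1102 TPM and at 2272, 2301 and 2515 TPM. In the M21 table Trac and Trav thus differed between libraries more than the beta constant genes did, and the part of library preparation in this was not tested. The recombination genes Rag1 and Rag2 and the nucleotide-adding enzyme Dntt had 0 to 4, 0 and 0 counts.

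The deposited M4 table gave lower values for abundant V genes. It lists 99 of the 128 Trav genes and no Traj gene. Its Trav counts were 2074, 1386 and 1485, or 406, 275 and 281 CPM of its own totals, so library 1 was 1.46 times the mean of the others there. Trac had 1413, 1177 and 1190 counts, and the M21 value was 41.0, 21.3 and 23.6 times higher. For Trav14d-3-dv8 that ratio was 16.4, 6.99 and 6.79, while for Trav1 it was 1.04, 1.00 and 1.02. Over all genes the median ratio rose with the density of counts, from 1.64, 1.64 and 1.66 at up to 0.2 counts per base to 10.2, 11.2 and 11.9 above 5 per base. V segments with dense counts were thus lower in the M4 table relative to sparse ones. Of the listed Trav genes 33 were at 0 in every library, among them 19 with at least 30 expected counts, of which 18 have no unique window. The subgroup distances in that table were 8.82%, 10.3% and 4.62%, so library 1 stood apart there too. How the M4 table was counted is a point not given in the sources used here.

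**Figure D5:**
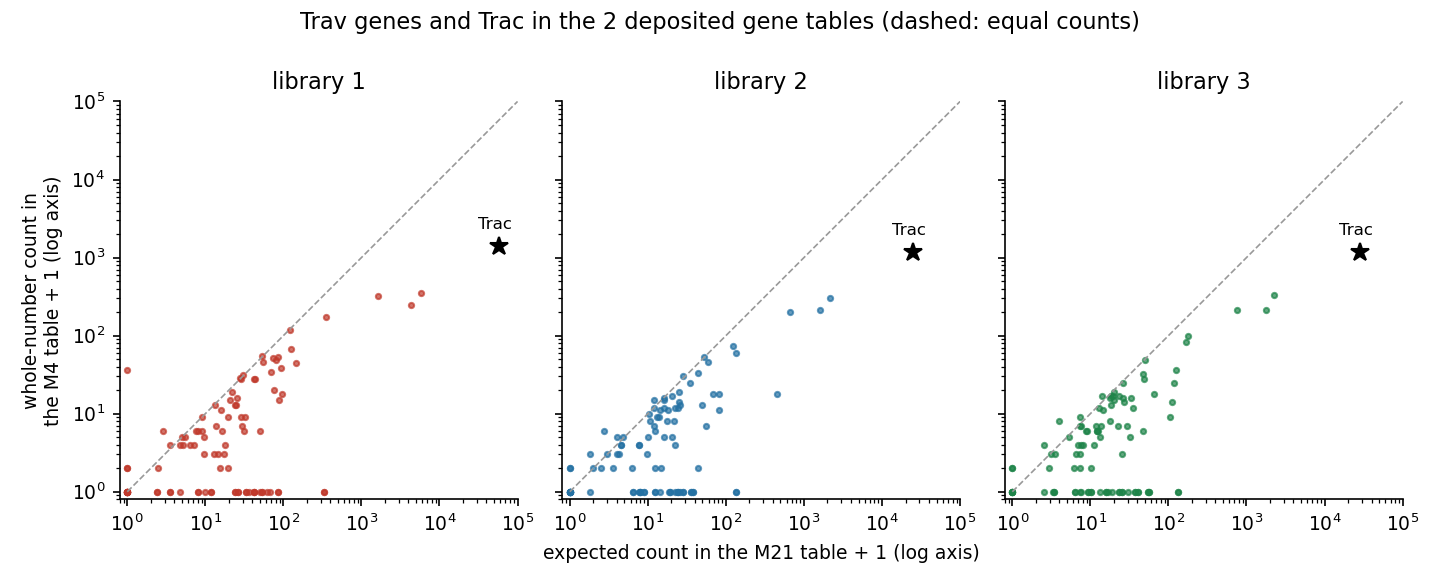
Whole-number counts of the M4 table against expected counts of the M21 table for the 99 Trav genes listed in both, with Trac as a star, 1 added to each value, on log axes. Dashed lines mark equal counts; Trac lies 41.0, 21.3 and 23.6 times below its M21 value, and the points on the floor are genes listed at 0 in the M4 table.

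Overlapping genes on the opposite strand touched 3 members. Trav13d-3 overlaps Gm30214 and had 0, 13.5 and 2.35 counts beside 17.3, 0 and 8.28 for the antisense gene. Trav13n-3 overlaps Gm43650 and had 13.6, 0 and 11.2 beside 0, 11.2 and 8.51. Trav22 overlaps Gm43647, and both had 0 counts. With the use of strand in counting not given in the sources used here, these values are uncertain.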

How the data were processed

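Members and lists were chosen with earlier results of these data known. Per the file headers and the deposited text files, the authors estimated counts per gene on build mm10 with GENCODE M21; with the aligner and the quantifying program not given in the sources used here. The deposited expected counts were used as they stand, and rounded for tests. The authors deposited TPM and FPKM values, scaled within each library, and the posterior SD of each count and the effective length (score columns). Whole-number counts on GENCODE M4 were deposited without a header. Of 81881 rows, the 55536 with an annotated gene ID were kept.

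Shares were taken within Trav and within Traj, with 95% Wilson intervals. Pearson's chi-square test compared rounded counts with library totals for genes with at least 30 counts, over the whole table, with Benjamini-Hochberg adjustment at 0.05. A count of 0 allows 3 counts. On data simulated with counting error alone for 13177 genes, the test called 82.0% of genes changed 2-fold in 1 library and 0.0694% of unchanged genes. Windows of 50 bases, the read length implied by the effective lengths, were compared on both strands with all other M21 transcripts. The genes named are the highest by mean share (10 V genes, 8 copy sets, 8 subgroups, 12 J genes), the 5 V genes with the largest ratio between libraries, the invariant receptor segments and the listed gene groups. Alternatives were TPM, posterior means, M4 counts, other scalings, count minimums and leaving out libraries. No quasi-likelihood test was run, since there is 1 group; edgeR 4.0.16 in R 4.3.3 gave TMM factors. Python 3.11.15, numpy 2.4.6, scipy 1.17.1, pandas 2.3.3 and matplotlib 3.10.9 were used.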

Additional observations from a re-analysis of the deposited data

Results flagged for a closer look

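A further gene, C920008G01Rik (chr14:53020416-53020991), is annotated as a V gene within the alpha locus but lies outside the symbol rule, so that no share above includes it. It had 10.62, 17.62 and 24.45 expected counts in libraries 1, 2 and 3, with posterior SDs of 3.20, 5.22 and 7.26, and each value is above the 3 counts that a count of 0 allows. No group holds 4 or more libraries, so no test for a library far from the others was made.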

How the results depend on the processing

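No paired analysis was possible because the libraries form 1 group. The M4 counts moved most shares: Trav14 to 57.2% from 69.9%, the Trav14-3 set to 48.6% from 63.3%, Trav14d-3-dv8 to 20.3% from 30.4%, d and n genes to 41.6% from 73.7%, and V pseudogenes to 0.335% from 0.612%. The M4 table lists 99 of the 128 Trav genes, so these M4 shares cover a smaller set of genes. Per length (TPM), Trav14d-3-dv8 held 24.2%. Alternatives that read M4 counts, for library distances and for the level of library 1, were chosen after seeing the data. With 2 position groups of 30 J segments in place of 4, the highest held 64.9% in place of 42.9%. Members called different between libraries numbered 41 of 92 (44.6%, beside 75.8% of all features). With copy sets summed they were 26 of 59 (44.1%, beside 75.8%) and with subgroups summed 17 of 37 (45.9%, beside 75.9%), so fewer were tested but the share called hardly moved. With overdispersion divided out they were 5 of 92 (5.43%, beside 21.6%), and for all genes 9983 became 2842. TMM factors called 45 members and median-of-ratios factors 47. Leaving out 1 library gave ranges of 66.6 to 72.0% for Trav14, 60.2 to 65.4% for the Trav14-3 set, 28.6 to 31.8% for Trav14d-3-dv8, 9.65 to 11.7% for Traj26, 42.5 to 43.5% for J position group 3, 71.1 to 75.9% for d and n genes, 0.547 to 0.731% for V pseudogenes and 68.8 to 69.2% for Trav against Trac. For calls the ranges were 5 to 40 members and 2079 to 9260 genes, lowest without library 1. The causes were not tested. Of the named genes' and groups' values, 36 moved by more than 1 SD or differed and 171 did not. Depth limits the J segments, whose counts are few.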
